A study of Rattus norvegicus with 12 samples.

Results

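Transcripts of matrix metalloproteinases and of their inhibitors were followed in 2 rat kidney cell lines. These were epithelial cells given vehicle or cisplatin, and fibroblasts given medium from epithelial cells. The genes were chosen by Ensembl rat identifier: Mmp2 (ENSRNOG00000016695), Mmp3 (ENSRNOG00000032626), Mmp14 (ENSRNOG00000010947), Timp1 (ENSRNOG00000010208) and Timp2 (ENSRNOG00000003148). Of these 5 identifiers, 4 had a row among the 21698 genes of the counts table. The Timp2 identifier was absent from the table, so Timp2 was not analysed here. The symbols were attached to the identifiers when the genes were chosen, since the table itself holds no gene names.

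RNA-seq had been done on 12 libraries in 4 groups of 3. NRK-52E is a rat kidney epithelial line with tubular properties, and its cells had received vehicle or 40 µM cisplatin. Cisplatin is a platinum compound that forms DNA crosslinks and is toxic to kidney tubules. NRK-49F is a rat kidney fibroblast line, and its cells had spent 24 h in conditioned medium taken from NRK-52E. The donor NRK-52E cells were either untreated (untreated medium) or had been given 40 µM cisplatin (cisplatin medium). The design text gives 24 h of cisplatin, whereas the labelled protocol gives 6 h, a rinse and then 24 h in fresh medium, and the labels do not settle which applies to the sequenced NRK-52E cells. All cells were grown with 5% fetal bovine serum, and each line stands for a single established culture and not for a tissue. No NRK-49F group without conditioned medium was among the samples. Nothing in the labels ties the 3 libraries of a group to separate cultures, so the p-values speak only to the spread among these libraries, possibly a technical one.

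Total counts were 9684887 to 12549675 per library. Values are given in CPM (counts scaled to a common library total), adjusted by TMM factors over all 12 libraries unless stated. A single library resolves 3 counts, or 0.239 to 0.31 CPM of its total, a floor that covers counting error only. Identifiers were not paired with names, so epithelial and fibroblast markers could not be looked up and the labelled cell types were not checked against them, and other genes of the protease pathway were not analysed here. In bulk RNA, fewer cells of a kind and less RNA per cell cannot be told apart.

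Matrix metalloproteinases are zinc-dependent proteases that cut collagens, laminins, proteoglycans and other extracellular matrix proteins. They are made as inactive proenzymes whose propeptide must be removed. Tissue inhibitors of metalloproteinases (TIMPs) bind the active enzymes and block the catalytic site. Mmp14 sits in the plasma membrane and, with Timp2 as a bridge, activates pro-Mmp2 at the cell surface. Mmp2, a gelatinase, degrades the collagen IV of basement membranes, and Mmp3, a stromelysin, cleaves a wide range of matrix proteins and activates other proenzymes. Timp1 inhibits most secreted family members and only weakly Mmp14. In the kidney the family takes part in turnover of the tubular basement membrane and in fibrosis.

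Upstream sequences are shown for Mmp3 and Timp1, whose transcripts moved most in the fibroblasts, as described below. They come from RefSeq (GRCr8), whose promoter table, matched by symbol, held 3 of the 5 genes (Mmp3, Timp1 and Timp2). Both are written 5′ to 3′ on the strand of the gene, with matches to the searched motifs in capitals. The Mmp3 stretch covers chr8:12925031-12925266 on the plus strand and ends just before the annotated gene. The Timp1 stretch covers chrX:3771193-3771372 on the minus strand and lies within the annotated span of the gene, since other annotated transcripts reach further upstream.
Mmp3: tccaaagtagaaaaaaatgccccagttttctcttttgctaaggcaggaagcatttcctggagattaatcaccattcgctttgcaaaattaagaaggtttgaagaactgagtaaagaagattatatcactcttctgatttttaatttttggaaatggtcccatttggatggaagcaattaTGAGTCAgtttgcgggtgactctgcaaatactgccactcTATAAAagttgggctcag
Timp1: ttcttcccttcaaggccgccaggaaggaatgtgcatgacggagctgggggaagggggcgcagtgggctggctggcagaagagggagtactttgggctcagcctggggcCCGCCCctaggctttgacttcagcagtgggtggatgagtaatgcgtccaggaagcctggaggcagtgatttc

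Motifs were searched on both strands of the 250 bases before the start, and both printed stretches begin at the first of these bases. The start is that of the promoter table. For Mmp3 it lies past the end of the printed stretch, inside the annotated gene. The AP-1 site was searched as TGAGTCA, read from either strand. The TATA box was searched as TATAAA. The GC box was searched as GGGCGG. None of these motifs overlaps another in the printed stretches. Mmp3 held the AP-1 site from 71 to 65 bases and the TATA box from 32 to 27 bases before the start. Of 33469 rat promoters in the table, 4.05% held the first of these motifs and 12.9% the second. Timp1 held 1 match to the GC box, on the opposite strand from 142 to 137 bases before the start, a motif present in 30.5% of promoters. These matches describe the letters in the windows and are no evidence of binding. In RefSeq order the protein-coding genes nearest to Mmp3 are other members of the family, Mmp13, Mmp12 and Mmp1b on one side and Mmp1, Mmp10 and Mmp8 on the other.

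**Figure D1:**
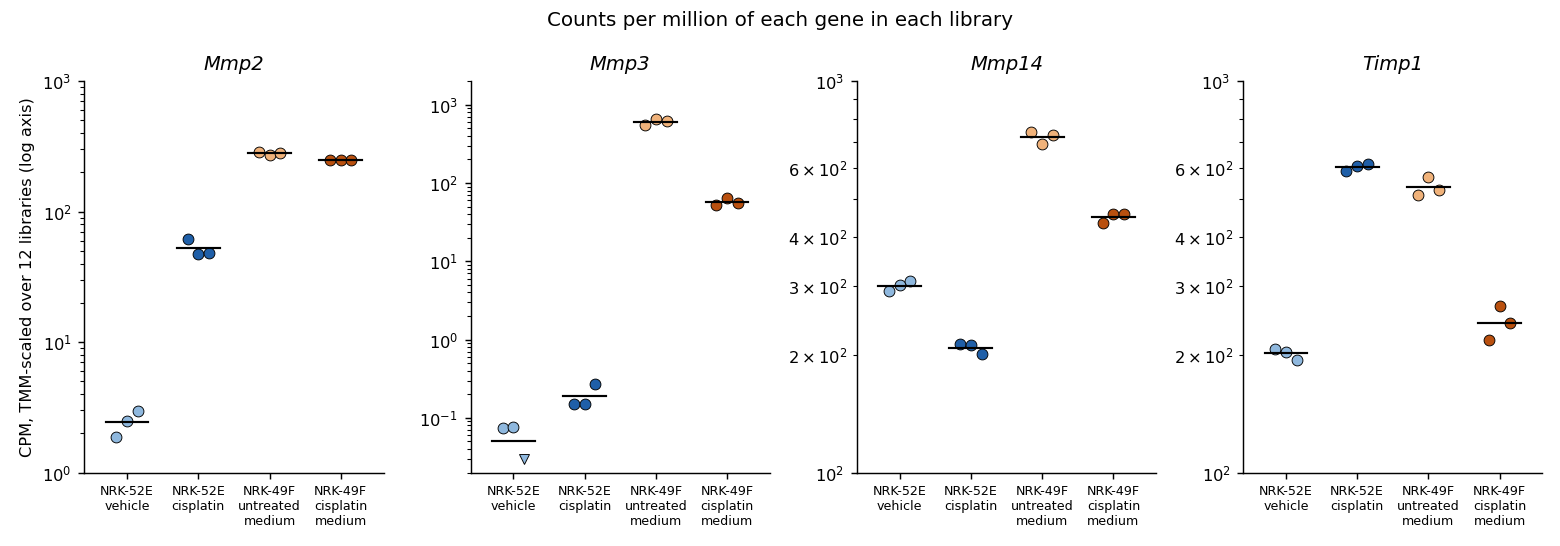
CPM of Mmp2, Mmp3, Mmp14 and Timp1 in each of the 12 libraries, TMM-scaled over all libraries, on log axes that differ between panels. Points are libraries, bars are group means, and the triangle marks a library with 0 counts, drawn near the foot of the axis. Mmp3 is at 0.267 CPM or less in NRK-52E and above 52.0 CPM in NRK-49F, and Timp1 is high in NRK-52E with cisplatin and in NRK-49F with untreated medium.

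Without cisplatin the protease transcripts were higher in the fibroblasts. Here NRK-52E with vehicle was compared with NRK-49F in untreated medium. That medium came from NRK-52E and had been on the fibroblasts for 24 h. Line and medium therefore cannot be told apart, and levels of NRK-49F outside conditioned medium are not known. Mmp3 had 1, 1 and 0 counts in NRK-52E with vehicle and 5419, 5536 and 5648 counts in NRK-49F with untreated medium. In NRK-52E the gene was thus at or below the floor in each library. From pooled counts (2 against 16603) the ratio between the lines was 8699 (95% exact interval 2408 to 71834, counting error only). Mmp2 was at 1.87, 2.48 and 2.96 CPM in NRK-52E with vehicle and at 287, 271 and 283 CPM in NRK-49F with untreated medium, 114-fold higher in the fibroblasts (log2 difference, NRK-52E minus NRK-49F, -6.84 ± 0.10 SE; edgeR adjusted p = 2.84e-45).

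Mmp14 and Timp1 were plainly expressed in both lines. Mmp14 was at 291, 301 and 309 CPM in NRK-52E with vehicle and at 743, 691 and 730 CPM in NRK-49F with untreated medium, a log2 difference of -1.26 ± 0.04 SE (edgeR adjusted p = 8.16e-31). Timp1 was at 207, 203 and 194 CPM against 511, 570 and 526 CPM, a log2 difference of -1.41 ± 0.05 SE (edgeR adjusted p = 1.5e-29). The groups did not overlap for Mmp2, Mmp14 and Timp1, and all 3 were lower in NRK-52E. Mmp3 entered the test only through its counts in NRK-49F, had to differ, and is not counted. Of 13127 genes tested, 81.7% passed in this comparison and 40.9% were lower in NRK-52E, and 82.4% had groups that did not overlap. With library size as the only scaling the median of all genes moved by 0.49 toward NRK-52E (log2). The calls became 7699 higher and 3481 lower in NRK-52E instead of 5365 and 5364. The log2 differences of Mmp2, Mmp14 and Timp1 became -6.35, -0.77 and -0.92.

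The first treatment comparison asked what cisplatin did to the epithelial cells. Mmp2 and Timp1 rose and Mmp14 fell with cisplatin, while Mmp3 had 3 counts or fewer in each library. Mmp2 had 25, 32 and 42 counts in the vehicle libraries and 828, 629 and 540 in the cisplatin libraries. The vehicle mean was 2.43 ± 0.543 CPM and the cisplatin mean 52.4 ± 8.18 CPM (SD, n = 3 each). The lowest cisplatin library, at 47.2 CPM, lay far above the highest vehicle library, and the first cisplatin library, at 61.8 CPM, stood above the other two. The change was 21.2-fold (95% interval 17.6 to 25.5; log2 fold change 4.40 ± 0.13 SE; edgeR adjusted p = 9.79e-26). Ranked by log2 fold change, Mmp2 was number 257 from the top of 12508 genes tested. Even so, Mmp2 with cisplatin remained below NRK-49F, which in cisplatin medium was 4.72-fold higher (95% interval 4.35 to 5.13; edgeR adjusted p = 4.87e-34). With library size only, the log2 difference (NRK-52E minus NRK-49F) was -1.92 instead of -2.24. The interval does not cover the choice of scaling.

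Timp1, the inhibitor, was at 590, 606 and 613 CPM in the cisplatin libraries, where no library came near the vehicle values of 194 to 207 CPM. Its rise was 2.96-fold (95% interval 2.79 to 3.14; log2 fold change 1.57 ± 0.04 SE; edgeR adjusted p = 2.58e-27). Timp1 in NRK-52E with cisplatin was the highest of its 4 group levels, and exceeded NRK-49F in cisplatin medium by 2.50-fold (95% interval 2.33 to 2.67; edgeR adjusted p = 1.72e-28). This size too depended on the scaling, with a log2 difference of 1.63 with library size only instead of 1.32.

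Mmp14, the membrane-bound activator of pro-Mmp2, moved the other way. It was at 214, 212 and 200 CPM with cisplatin, each below the lowest vehicle library at 291 CPM. The log2 fold change was -0.54 ± 0.04 SE, a level 1.45-fold lower (95% interval 1.37 to 1.54; edgeR adjusted p = 1.01e-13). This fall did not pass when tested against a change of 1.5-fold. Mmp3 had 2, 2 and 3 counts in the cisplatin libraries and 1, 1 and 0 with vehicle. It was too low to be tested, and a change was not detectable at this depth.

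All 3 genes tested in NRK-52E passed, 2 higher and 1 lower, and their groups did not overlap. In the same comparison 76.2% of 12508 genes passed, 38.7% higher and 37.6% lower, and 77.6% had groups that did not overlap, so a pass by itself does not set these genes apart. The median log2 fold change of the 3 was 1.57, the value of Timp1, beside 0.01 over all genes tested. The genes were chosen with earlier results of these data known, so the 2 medians are a description only.

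**Figure D2:**
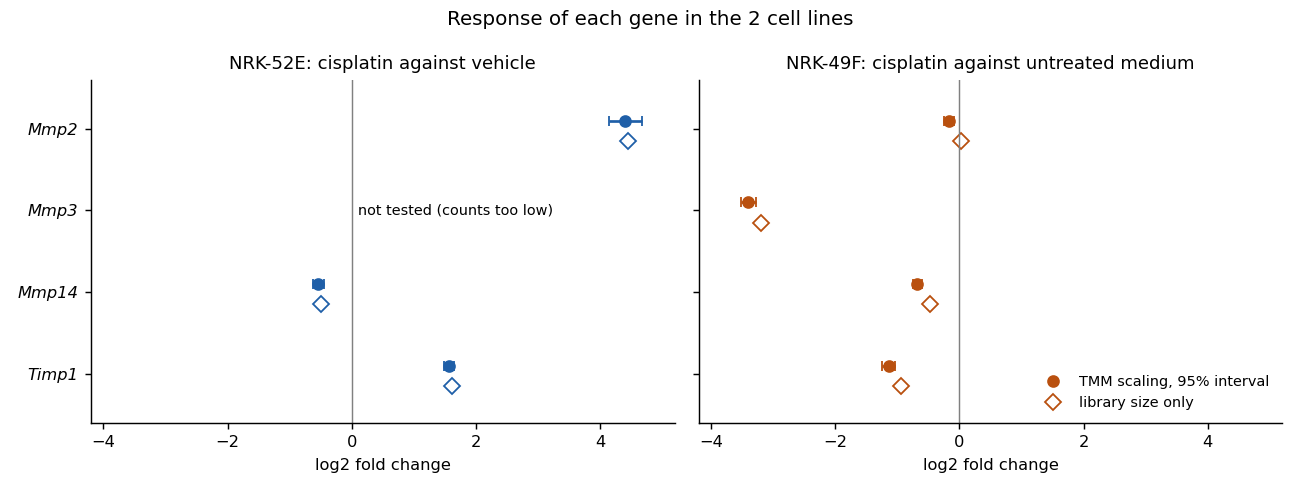
Log2 fold changes of the 4 genes with cisplatin in NRK-52E (left) and with cisplatin medium in NRK-49F (right). Filled circles are TMM-scaled edgeR estimates with 95% intervals and open diamonds are estimates with library size as the only scaling. Mmp2 in NRK-49F lies at -0.17 with TMM and at 0.026 with library size only, on opposite sides of 0.

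The second treatment comparison asked how the fibroblasts differed between medium from cisplatin-treated and from untreated epithelial cells. Carry-over of cisplatin in the medium was not tested. Mmp3, Timp1 and Mmp14 fell in cisplatin medium, Mmp3 by far the most, and the small change of Mmp2 depended on the scaling. Mmp3 was at 551, 658 and 610 CPM in untreated medium and at 52.0, 63.8 and 55.7 CPM in cisplatin medium, with means of 607 ± 53.5 and 57.2 ± 6.04 CPM (SD, n = 3 each). Each library in cisplatin medium lay far below each in untreated medium, at 521 to 713 counts against 5419 to 5648. The level was 10.6-fold lower (95% interval 9.71 to 11.5; log2 fold change -3.40 ± 0.06 SE; edgeR adjusted p = 1.59e-32). Mmp3 had the 23rd lowest log2 fold change of 11525 genes tested. At this reduced level Mmp3 in NRK-49F was still 250-fold above NRK-52E with cisplatin by pooled counts (1888 against 7; 95% exact interval 121 to 623, counting error only).

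Timp1 fell from 511, 570 and 526 CPM in untreated medium to 219, 266 and 241 CPM in cisplatin medium. The groups did not overlap, and the level was 2.21-fold lower (95% interval 2.06 to 2.37; log2 fold change -1.14 ± 0.05 SE; edgeR adjusted p = 1.12e-20). Mmp14 fell from 743, 691 and 730 CPM to 435, 458 and 457 CPM, again without overlap. Its level was 1.60-fold lower (95% interval 1.52 to 1.69; log2 fold change -0.68 ± 0.04 SE; edgeR adjusted p = 2.38e-17).

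Mmp2 was at 287, 271 and 283 CPM in untreated medium and at 250, 247 and 248 CPM in cisplatin medium. On this scale the groups did not overlap and the log2 fold change was -0.17 ± 0.04 SE (edgeR adjusted p = 0.000273). In CPM of the library total, without TMM factors, Mmp2 was at 233, 219 and 230 in untreated medium and at 233, 230 and 232 in cisplatin medium, and the groups overlapped. The log2 fold change was then 0.026 (edgeR adjusted p = 0.567). The fall of Mmp2 was thus one relative to the bulk of genes, as the TMM factors set it.

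All 4 genes passed as lower in NRK-49F with TMM factors, and 3 of 4 with library size only. Of 11525 genes tested, 61.8% passed and 31.0% passed as lower, and 65.6% had groups that did not overlap. The median log2 fold change of the 4 genes was -0.91, beside 0.02 over all genes tested, again a description of genes chosen with earlier results known. With library size only, the median of all genes moved up by 0.20 (log2) and the calls became 5918 higher and 1926 lower instead of 3555 and 3568. The falls of Mmp3, Timp1 and Mmp14 passed under this scaling as well, at -3.20, -0.94 and -0.48.

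**Figure D3:**
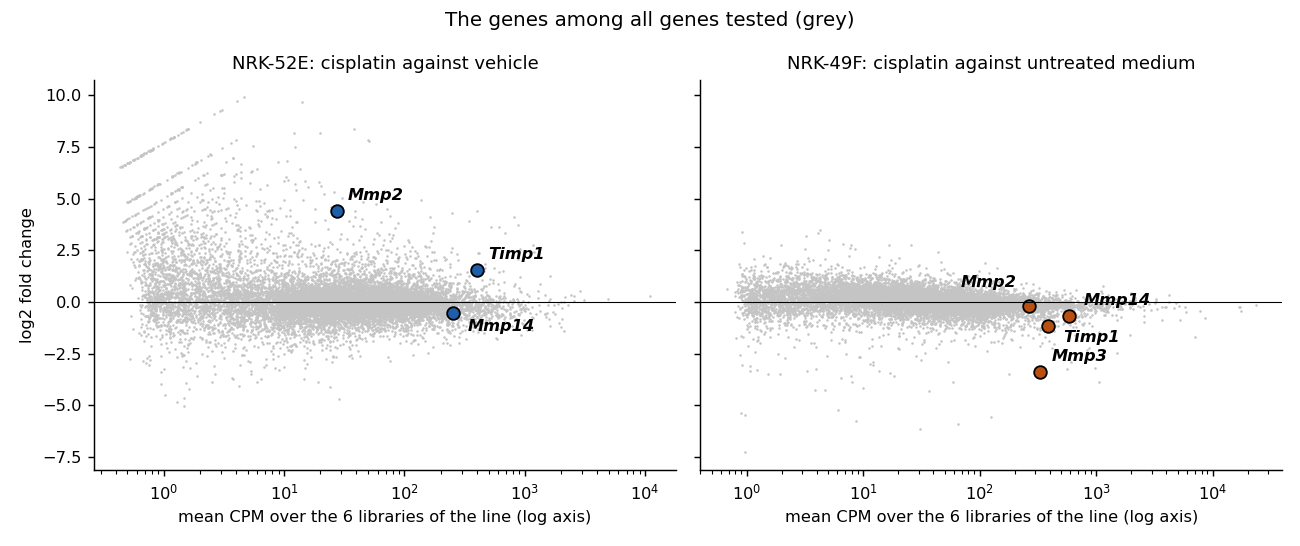
Log2 fold change against mean CPM over the 6 libraries of each line (log axis) for all genes tested, in grey, with the genes described here as filled circles. Mmp2 lies above the dense part of the cloud in NRK-52E, and Mmp3, with the 23rd lowest value, lies well below the dense part of the cloud in NRK-49F.

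The responses of the lines were set against each other by a direct test of their difference, in which the agent (drug or medium) and the line cannot be told apart. Timp1 moved in opposite directions, rising in NRK-52E and falling in NRK-49F, and the difference of log2 fold changes (NRK-52E minus NRK-49F) was 2.73 ± 0.07 SE (edgeR adjusted p = 5.08e-34). For Mmp2 the difference was 4.60 ± 0.13 SE (edgeR adjusted p = 2.52e-31), nearly all of it from the rise in NRK-52E. Mmp14 fell in both lines, with log2 fold changes of -0.54 and -0.68, and the difference was 0.16 ± 0.06 SE (95% interval 0.04 to 0.27; edgeR adjusted p = 0.0146). That small difference is not firm. With library size only it was -0.018 (edgeR adjusted p = 0.813). Leaving out any 1 of 5 libraries (replicate 1 of NRK-52E vehicle, replicates 1 and 3 of untreated medium, replicates 1 and 3 of cisplatin medium) gave 0.081 to 0.13 with edgeR adjusted p from 0.057 to 0.26. Mmp3 passed too (edgeR adjusted p = 8.7e-05), but with at most 3 counts per library in NRK-52E its fitted difference depends on the prior count and is not read as a response there. Mmp3 entered this test only through its counts in NRK-49F and is not counted. The other 3 genes passed as higher in NRK-52E, where 66.5% of 13127 genes passed, 33.9% as higher and 32.6% as lower. With library size only, Mmp2 and Timp1 passed, and the calls over all genes became 3602 higher and 5196 lower instead of 4447 and 4277.

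Across the 4 groups each gene had its own order of levels. Mmp2 was highest in NRK-49F with untreated medium, then with cisplatin medium, then in NRK-52E with cisplatin and lowest with vehicle. With library size only, the 2 NRK-49F groups could not be ordered, since their ranges overlapped. Mmp3 was higher in NRK-49F with untreated than with cisplatin medium, and both NRK-52E groups were at or under the floor and were not ordered. Mmp14 was highest in NRK-49F with untreated medium, then with cisplatin medium, then in NRK-52E with vehicle and lowest with cisplatin. No neighbouring groups overlapped for Mmp14, by TMM or library size. Timp1 was highest in NRK-52E with cisplatin (603 ± 11.7 CPM), next in NRK-49F with untreated medium (536 ± 30.8), then in NRK-49F with cisplatin medium (242 ± 23.7) and lowest in NRK-52E with vehicle (202 ± 6.64; SD, n = 3 each). In CPM of the library total, the 2 lowest Timp1 groups overlapped, at 204 to 247 in NRK-49F with cisplatin medium and 221 to 236 in NRK-52E with vehicle. In the comparison of NRK-52E with cisplatin against NRK-49F with cisplatin medium, Timp1 was higher and Mmp2 and Mmp14 lower in NRK-52E (Mmp3 again not counted), while 82.7% of 13127 genes passed, 42.6% higher and 40.1% lower, and 83.0% had groups that did not overlap. The calls there became 7381 higher and 3756 lower with library size only, instead of 5597 and 5265, and the median of all genes moved by 0.31 (log2) toward NRK-52E.

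Proteases and inhibitor were then set against each other by ratios of raw counts within a library, which no library scaling can move. Transcript length enters such a ratio, so only its change between groups is read and not its level. In NRK-52E the log2 ratio of Mmp14 to Timp1 went from 0.57 ± 0.09 with vehicle to -1.53 ± 0.07 with cisplatin (SD, n = 3 each), a ratio 4.31-fold lower. In NRK-49F it went from 0.43 ± 0.14 to 0.90 ± 0.11 in cisplatin medium (SD, n = 3 each), a ratio 1.38-fold higher. The Mmp14 to Timp1 ratio of counts thus fell in the epithelial cells and rose in the fibroblasts, with no overlap of groups in either line. How often the ratios of other gene pairs lack overlap was not determined. Such ratios restate the fold changes above without library scaling. They are of transcripts, and do not measure proenzyme, active enzyme or inhibitor protein, and Timp1 inhibits Mmp14 only weakly.

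The other ratios shifted as well. For Mmp2 to Timp1, the log2 ratio went from -6.40 ± 0.38 to -3.54 ± 0.24 in NRK-52E and from -0.93 ± 0.12 to 0.04 ± 0.15 in NRK-49F (SD, n = 3 each), 7.26-fold and 1.97-fold higher. For Mmp3 to Timp1 in NRK-49F it went from 0.18 ± 0.06 to -2.08 ± 0.03 (SD, n = 3 each), 4.78-fold lower, since Mmp3 fell more than Timp1. In the fibroblasts in cisplatin medium, counts relative to Timp1 were therefore lower for Mmp3 and higher for Mmp2 and Mmp14. In NRK-52E with cisplatin, counts relative to Timp1 were lower for Mmp14 and higher for Mmp2, so the proteases did not shift together. For Mmp2 to Mmp14, a protease and its activator, the log2 ratio went from -6.97 ± 0.29 to -2.00 ± 0.19 in NRK-52E and from -1.36 ± 0.01 to -0.86 ± 0.05 in NRK-49F (SD, n = 3 each), with no overlap in either line.

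**Figure D4:**
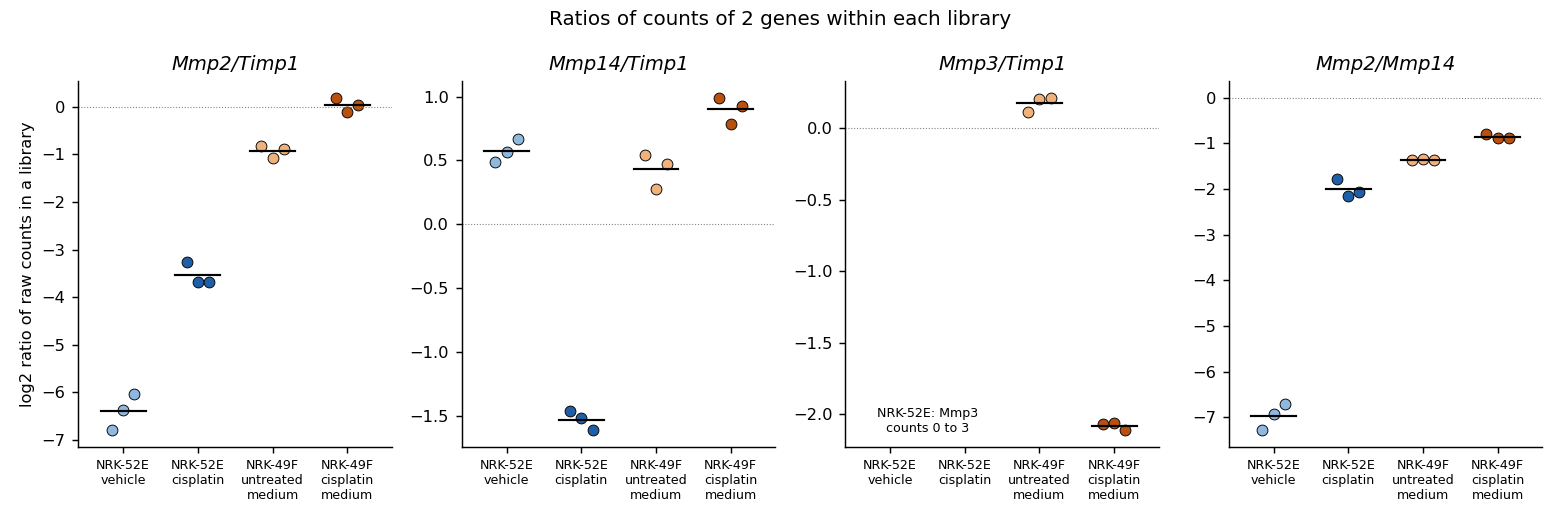
Log2 ratio of raw counts of 2 genes within each of the 12 libraries. Points are libraries and bars are group means, axes differ between panels, the dotted line marks equal counts, and Mmp3 to Timp1 is left out for NRK-52E, where Mmp3 had 0 to 3 counts. The Mmp14 to Timp1 ratio is lower with cisplatin in NRK-52E (means 0.57 and -1.53) and higher with cisplatin medium in NRK-49F (0.43 and 0.90). The Mmp2 to Timp1 ratio is higher in both lines, and the Mmp3 to Timp1 ratio is lower with cisplatin medium in NRK-49F.

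The profile over the 12 libraries was also compared with 12047 other genes of at least 1 CPM, by the root mean square difference of centred log2 CPM. The difference is not scaled for the size of change, so a gene with small differences between groups has more genes within a fixed distance than a gene with large ones, and the counts say nothing of how rare a pattern is. For Mmp14, 2196 genes lay within 0.5. The nearest, ENSRNOG00000048978, was at 0.052, with 16.0 and 11.2 CPM in NRK-52E with vehicle and cisplatin and 39.0 and 23.6 CPM in NRK-49F with untreated and cisplatin medium. For Timp1, 539 genes lay within 0.5. The nearest, ENSRNOG00000014479, was at 0.12, and its means were 62.6 and 152 CPM in NRK-52E and 154 and 63.8 CPM in NRK-49F. Its highest and lowest pairs of groups were those of Timp1, and its 2 highest means lay within 2 CPM of each other. For Mmp2, whose levels spanned a far wider range, 3 genes lay within 0.5. The nearest of these, ENSRNOG00000071065, was at 0.35 and rose in NRK-52E from 1.16 to 21.3 CPM, with 151 and 159 CPM in NRK-49F. For Mmp3 there was none within 0.5, and the nearest gene was at 0.67. In NRK-52E Mmp3 had 0 to 3 counts per library, so that part of its profile, and with it the distance, depends on the prior count of 2.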

How the data were processed

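The deposited values are raw read counts for Ensembl rat genes, in columns that carry the sample titles. Per the submitters' processing notes, the tools were STAR 2.7.10a and featureCounts and Subread, with no role or setting stated. The genome build, the annotation and the counting strand were not given in the sources used here, so reads of overlapping genes cannot be told apart. A separate edgeR fit (version 4.0.16, R 4.3.3) was made for each line. It used filterByExpr with minimum count 10 and minimum total 15, TMM factors, and the quasi-likelihood test of the group, with Benjamini-Hochberg adjustment over all genes and a threshold of 0.05. Contrasts between lines came from one fit of all 12 libraries. Each standard error was derived from the log2 fold change and its F statistic. Profiles used log2 CPM with a prior count of 2. Alternatives were library size only, DESeq2 1.42.0, no filter, a replicate block, a test against 1.5-fold, one fit of all libraries and each library left out. A chi-square of the counts per degree of freedom was 1.67 to 3.84 within groups, above sampling noise. Each library was counted as 1 sample, but this check does not show whether the spread is technical. The same code was run on simulated data with known changes. That simulation changed only a small set of genes, in random directions and with a single fixed spread, unlike the data here. It therefore does not bear on the choice of scaling or on genes with a wider spread.

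The genes and lists were chosen with earlier results of these data known. Named genes were to be the 5 identifiers, the nearest gene in profile to each (at most 2 that rose and 2 that fell in NRK-52E), and members of a protease pathway list and a cell marker list. RefSeq's gene table (GRCr8) matched 0 of the 21698 identifiers, so those lists were not run. Protein sequences were not used here. Plots were made in Python 3.11.15 using matplotlib 3.10.9.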

Additional observations from a re-analysis of the deposited data

Results flagged for a closer look

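Mmp2, Timp1 and Mmp14 passed the test for a difference in response between NRK-52E and NRK-49F and are listed here for that reason. The differences of log2 fold changes, NRK-52E minus NRK-49F, were 4.60 for Mmp2 (edgeR adjusted p = 2.52e-31), 2.73 for Timp1 (edgeR adjusted p = 5.08e-34) and 0.16 for Mmp14 (edgeR adjusted p = 0.0146). The value for Mmp14 did not hold under several alternatives. Mmp3 entered the test only through NRK-49F, with 9 counts over all 6 NRK-52E libraries, so its fitted difference of 5.10 shows no response in NRK-52E and no difference of responses. Groups of 3 libraries are too small for a search for single deviating libraries.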

How the results depend on the processing

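Of 288 values of single genes under the alternatives, 277 kept their direction and side of the threshold, 9 lost the call and 2 turned direction. These include Mmp3 in the difference and in both comparisons between lines, under 17 alternatives each, although it entered there only through NRK-49F and is not counted. Comparisons between lines also include omissions of libraries outside the contrast, which could hardly move the value. The share that held therefore overstates the stability of the results. With library size only, Mmp2 in NRK-49F turned to 0.026 and the Mmp14 difference between lines to -0.018 (log2). The other lost calls were Mmp14 in NRK-52E and Mmp2 in NRK-49F against a 1.5-fold change, and the Mmp14 difference against 1.5-fold, without a filter (0.11, edgeR adjusted p = 0.125) and without any of the 5 libraries named above. The number of genes called among the 4 was 2 to 3 in NRK-52E, 3 to 4 in NRK-49F, 3 to 4 for the difference and 4 in both comparisons between lines, the last 3 with Mmp3, which entered only through NRK-49F. Over all genes, the test against 1.5-fold called 3883 instead of 9536 in NRK-52E, 1184 instead of 7123 in NRK-49F, 4512 instead of 8724 for the difference, and 6709 instead of 10729 and 6238 instead of 10862 between lines. Over all genes, same-numbered libraries did not deviate together (correlations -0.063 to 0.033 over 12048 genes). Such a check does not show whether they shared a culture or a batch. With the replicate block, 3 genes passed in NRK-52E and 4 in each other comparison, and 9382 and 7020 of all genes. Depth limits Mmp3 in NRK-52E, where without the filter the test gave an edgeR adjusted p of 0.258.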

Other observations

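Mmp3 and Timp1 varied together between the NRK-49F libraries of a group. In untreated medium the second library was the highest for both genes (658 and 570 CPM) and the first the lowest (551 and 511 CPM). The same order held in cisplatin medium, with 63.8 and 266 CPM in the second library and 52.0 and 219 CPM in the first. The SD of log2 CPM was 0.13 for Mmp3 and 0.08 for Timp1 in untreated medium and 0.15 and 0.14 in cisplatin medium, while the SD of their log2 ratio was 0.06 and 0.03 (n = 3 each). Mmp2 and Mmp14 were lowest in the second library of untreated medium, at 271 and 691 CPM. In cisplatin medium the second library was the lowest for Mmp2, at 247 CPM, and the highest for Mmp14, at 458 CPM. With 3 libraries a group, this is a description only.

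Library-to-library spread also differed between genes. In NRK-52E with cisplatin the coefficient of variation was 15.6% for Mmp2, where counting error alone gives 3.88%, and 1.94% for Timp1, where it gives 1.15%. In NRK-49F with cisplatin medium it was 0.545% for Mmp2, below the 1.92% of counting error, and 9.82% for Timp1, where counting error gives 1.94%. The order of these 2 genes was thus reversed between these groups. A value below counting error shows how imprecise a coefficient from 3 libraries is, so the order is a description only.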
